A study of Mus musculus with 12 samples.

Results

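Type I interferon-stimulated genes were followed in liver RNA sequencing of 12 C57BL/6 mice aged 5 months. The set is a list of 40 gene symbols, chosen for their known induction by type I interferon and with earlier results of these data known. Shares of all tested genes given below are thus a background and not a test of the list. Its symbols were matched to the deposited table of 15846 genes. Of the 40, 39 were found under their symbol, and all 39 passed the filter on low counts, as did 14736 genes in all. The remaining gene, Ifi27, is listed under the symbol Ifi27l1 with the same Ensembl identifier, and its values are given apart from the counts over the 39. The mice formed 4 groups of 3: Shp Hep-/- on the HFCF diet, Shp Hep-/- on chow, wild type on HFCF and wild type on chow. Shp (symbol Nr0b2) encodes a receptor of the nuclear family that represses transcription by binding to other factors, and Hep-/- names its deletion in hepatocytes. The driver of the deletion and the composition of the HFCF diet are not given in the sources used here. The knockout (KO) and wild-type (WT) mice shared strain and age, and each library is 1 liver per the design text.

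Type I interferons bind the receptor IFNAR1/IFNAR2, which signals through the kinases JAK1 and TYK2. STAT2 and IRF9 are part of the complex ISGF3 that then forms, which binds the interferon-stimulated response element (ISRE) in the promoters of target genes. The targets include sensors of viral nucleic acid, the ubiquitin-like modifier ISG15 with its enzymes, and effectors that degrade RNA or block translation and virus release. In the liver both hepatocytes and Kupffer cells, the resident macrophages, respond to interferon.

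To show the element through which these genes are known to be induced, the RefSeq promoter windows (GRCm38.p6, 250 bases before to 50 after each annotated start) were searched on both strands for the ISRE core, which is GAAA, any 2 bases, GAAA. A window was present for 30 of the 39 genes, and 13 of these (43.3%) held the core, against 1079 of 27025 genes with a window (3.99%). The GAS-like motif TTC, any 3 bases, GAA was found in 5 of the 30 (16.7%), against 9.55% of all genes. These matches are letters in a window and were not tested for binding. The 9 stretches printed below were chosen because their genes carry the results that follow, from large knockout effects (Oas1a, Oas3) to the smallest on chow (Rsad2). They read 5′ to 3′ on the strand of the gene, and capitals mark the core or, where it lies on the opposite strand, its complement TTTC, any 2 bases, TTTC.

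Isg15 (chr4:156200840-156200931, minus strand): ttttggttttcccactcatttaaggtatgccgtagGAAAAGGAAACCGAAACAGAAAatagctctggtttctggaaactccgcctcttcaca
Oas1a (chr5:120907526-120907580, minus strand): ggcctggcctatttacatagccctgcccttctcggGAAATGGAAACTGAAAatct
Oas1g (chr5:120887614-120887666, minus strand): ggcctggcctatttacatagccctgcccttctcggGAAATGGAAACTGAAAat
Oas3 (chr5:120777690-120777769, minus strand): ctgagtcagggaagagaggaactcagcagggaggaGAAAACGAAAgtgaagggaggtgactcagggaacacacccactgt
Bst2 (chr8:71537552-71537637, minus strand): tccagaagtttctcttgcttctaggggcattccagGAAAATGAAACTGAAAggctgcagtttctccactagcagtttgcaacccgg
Ifit1 (chr19:34640750-34640848, plus strand): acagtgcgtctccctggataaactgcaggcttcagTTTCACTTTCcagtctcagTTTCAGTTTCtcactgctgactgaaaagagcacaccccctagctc
Ifit3 (chr19:34583338-34583451, plus strand): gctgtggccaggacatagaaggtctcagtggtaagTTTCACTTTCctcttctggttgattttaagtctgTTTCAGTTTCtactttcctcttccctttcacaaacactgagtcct
Stat2 (chr10:128270248-128270320, plus strand): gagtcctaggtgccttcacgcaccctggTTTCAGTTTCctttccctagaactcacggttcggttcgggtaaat
Rsad2 (chr12:26456528-26456607, minus strand): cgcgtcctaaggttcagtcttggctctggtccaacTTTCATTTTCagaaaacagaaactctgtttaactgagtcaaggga

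In Isg15, Oas1a, Oas1g and Bst2 successive copies of the core overlap and share a GAAA. The Oas1a and Oas1g stretches are the same up to their last bases. Both lie before the annotated start, so they do not show whether reads of these neighbouring paralogs can be told apart. How such reads were assigned is not given in the sources used here. Ifit1 and Ifit3 each hold a pair of separate copies on the opposite strand. In Ddx58, Ifih1 and Eif2ak2 the core lay after the annotated start, and Trim30a, with 2 annotated starts, held a copy in each window.

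**Figure D1:**
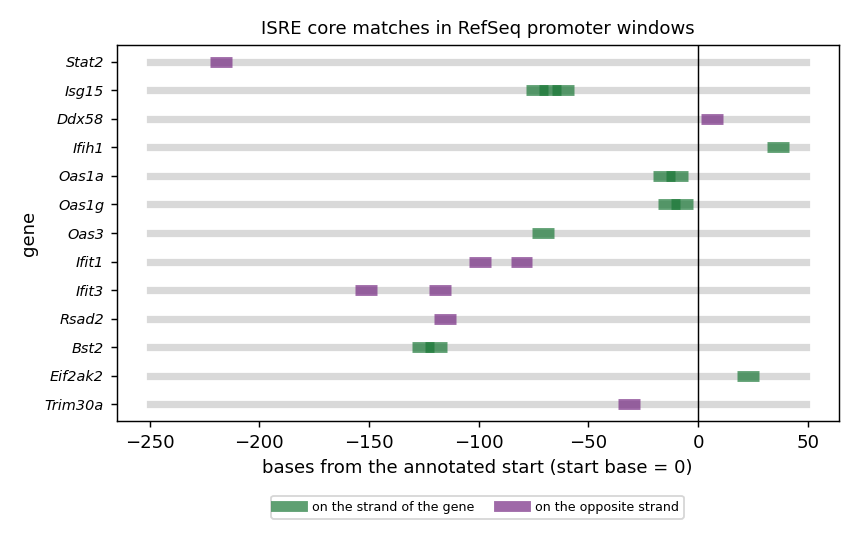
Position of the ISRE core in the promoter windows of the 13 genes that hold it. The horizontal axis gives the distance in bases from the annotated start (start base 0), each grey line is a window, and colour gives the strand of the match; most copies lie before the start.

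Libraries held 13967116 to 18324134 counts. Nr0b2 stood at 0.509, 0.21 and 0.394 CPM (counts scaled to library size with TMM factors) in KO HFCF livers, 0.775, 0.552 and 1.01 CPM in KO chow livers, 47.6, 49.6 and 53.4 CPM in WT HFCF livers, and 49.3, 22.4 and 31 CPM in WT chow livers. Its 2 genotypes were far apart on either diet. The library WT HFCF replicate 1 stood apart from the other 2 of its group, with chi-square values of 32.17 and 34.42 for each degree of freedom when set against them, while those 2 differed by 11.21. Counts that rest on it are given below with and without it. Hepatocyte markers (5 genes of 6 in the table) summed to 23000 to 25100 CPM in KO HFCF and 21500 to 27100 CPM in KO chow livers. In WT livers they summed to 20000 to 23400 CPM on HFCF and 27500 to 29400 CPM on chow, and albumin was not analysed here. At an edgeR adjusted p under 0.05, Cps1 fell in KO on chow, while on HFCF Pck1 rose and Ttr fell in KO. With diet in WT, Cps1 and Pck1 fell. Only the Ttr call and the diet call of Cps1 held without any single library.

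Most of the interferon-stimulated genes followed one order of group means, from KO HFCF through KO chow and WT HFCF to WT chow (heat map of the 39 genes). The median over the 39 genes of the log2 level relative to the WT chow mean reached 1.83, 1.73 and 1.47 in KO livers on HFCF, and 0.92, 1.12 and 1.16 in KO livers on chow. Among WT livers it was 0.94, 0.48 and 0.40 on HFCF, and 0.17, -0.10 and -0.07 on chow. Every KO library was above every WT chow library on this measure, and WT HFCF replicate 1 lay above KO chow replicate 1. The same median over all tested genes stayed between -0.01 and 0.01 in each library. Gene by gene, the KO HFCF mean was the highest of the 4 groups in 35 of the 39, the exceptions being Irf9, Stat2, Eif2ak2 and Trim25. The WT chow mean was the lowest in 36, all but Stat2, Mx2 and Trim25. The KO chow mean was above the WT HFCF mean in 36, all but Ifit2, Ifit3 and Samd9l. Shares over all tested genes were not computed for these orders of means. In 21 genes every one of the 6 KO libraries exceeded every one of the 6 WT libraries, which held for 5.67% of all tested genes.

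**Figure D2:**
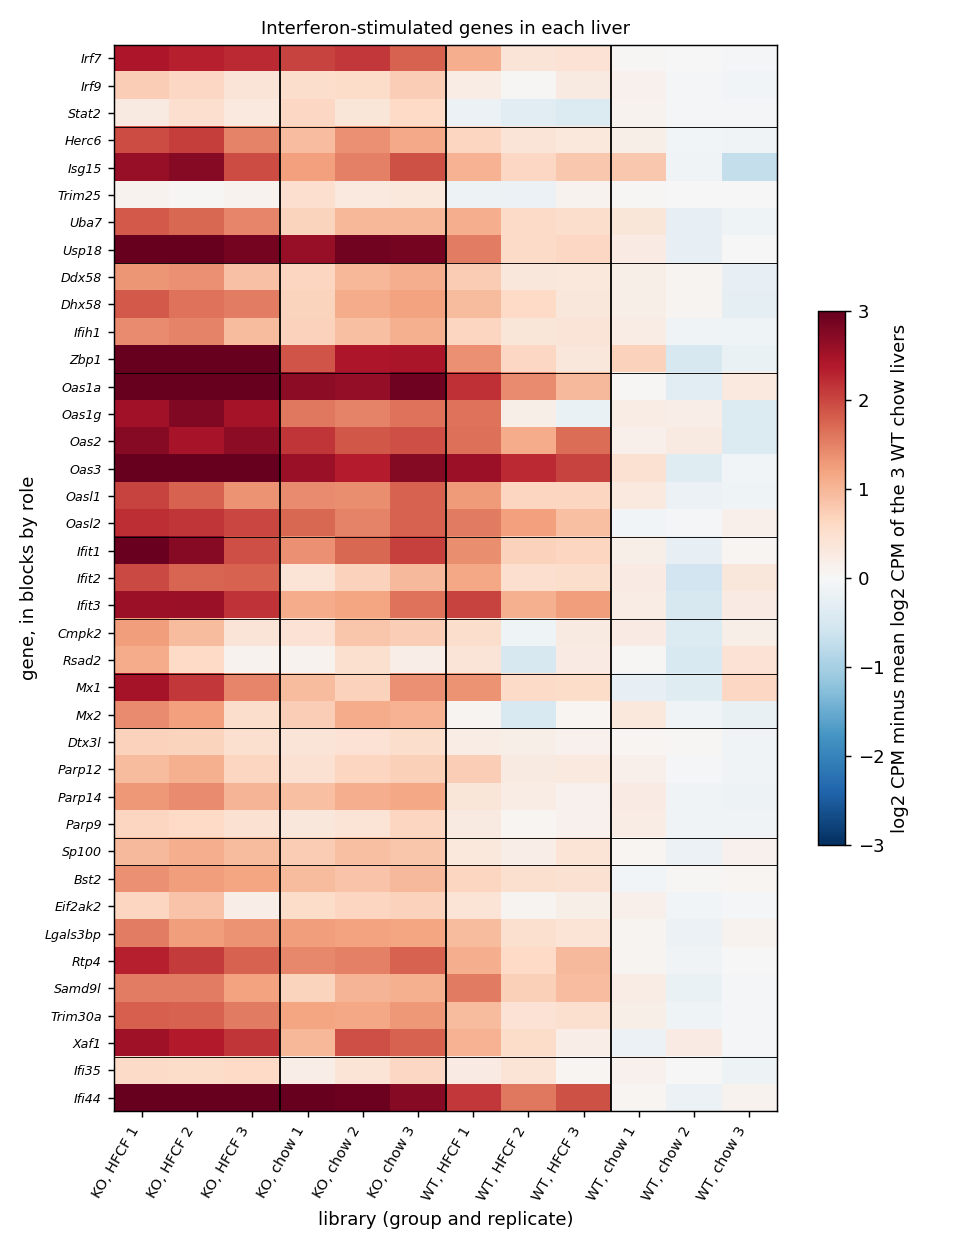
Levels of the 39 genes (rows, in blocks by role) in each of the 12 livers (columns). Colour is log2 CPM minus the mean log2 CPM of the 3 WT chow livers, with values beyond 3 drawn at 3; the KO columns are higher than the WT columns of the same diet in most rows, and WT HFCF replicate 1 is the highest of its group in 34 rows.

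The first comparison asked how loss of Shp in hepatocytes changed these genes on chow. Of the 39, 35 rose and none fell in KO livers at an edgeR adjusted p under 0.05, against 9.72% of all tested genes called up and 5.82% called down. The median log2 fold change was 1.00 over the 39 and 0.00 over all tested genes, and 20 of the 39 rose at least 2-fold. All but Rsad2, 38 in all, had groups that did not overlap, against 19.4% of all tested genes. The 4 genes not called were Ifit2, Mx1, Cmpk2 and Rsad2. On HFCF, 33 of the 39 rose and none fell in KO livers, against 10.6% called up and 8.52% called down among all tested genes, with a median log2 fold change of 0.92 over the 39 and 0.02 over all. Groups did not overlap in 33 of the 39, against 18.5% of all tested genes. These include Ifi35, which was not called, and leave out Parp12, which was. Ifi35, Eif2ak2, Trim25, Samd9l, Cmpk2 and Rsad2 were not called on HFCF, though each but Rsad2 passed with at least 1 single library left out. The genes called up on both diets numbered 31. Shares of all tested genes called up on both diets, or up at least 2-fold on chow, were not computed. Without WT HFCF replicate 1, 36 rose on chow and 35 on HFCF. In liver tissue, more cells that express a gene and more of its RNA per cell cannot be told apart.

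Averaged over both diets in one contrast of the same fit, 38 of the 39 rose in KO livers, against 16.8% of all tested genes. The gene not called there was Rsad2 (0.39 ± 0.19, edgeR adjusted p = 0.143). All 38 were also called in every alternative fit and with any single library left out.

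**Figure D3:**
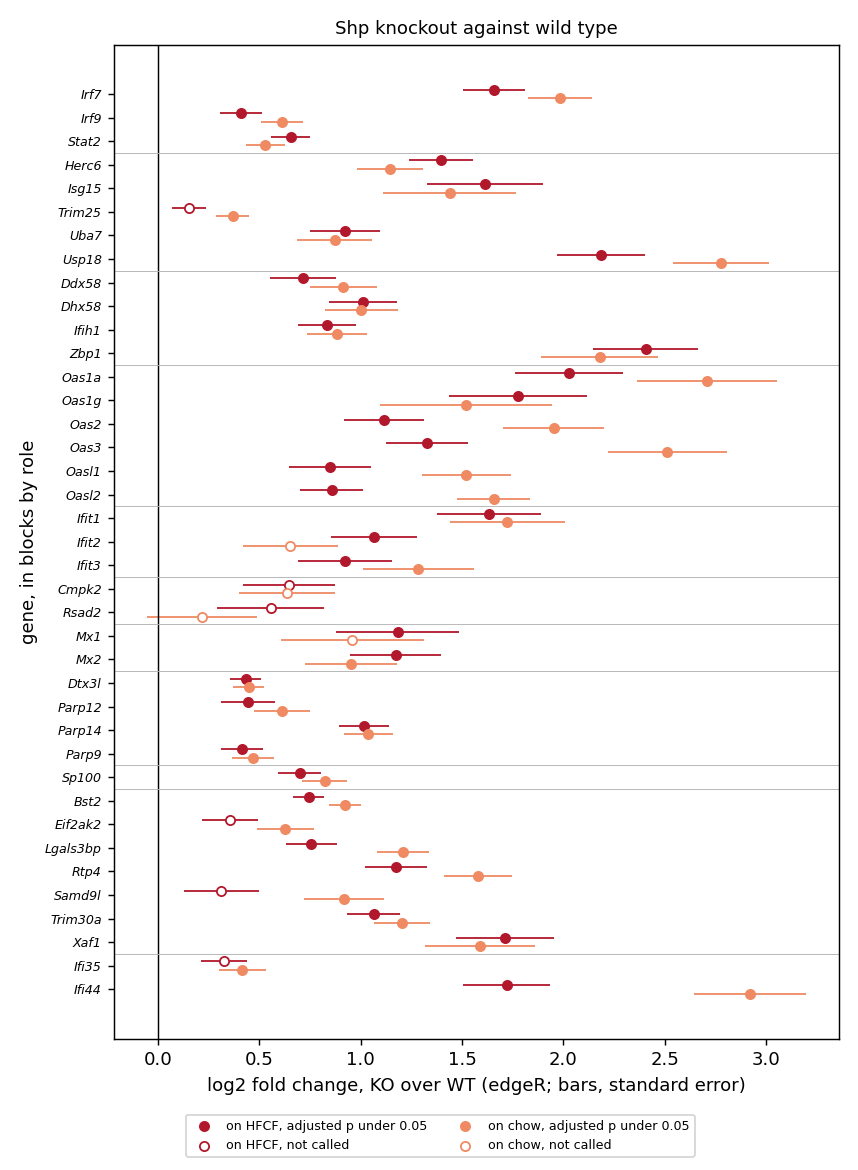
Knockout effect on each of the 39 genes. The horizontal axis is edgeR's log2 fold change of KO over WT, on HFCF (dark) and on chow (light), with bars for the standard error; filled points passed an adjusted p of 0.05, and every point lies to the right of 0.

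Several lists of immune cell markers held genes that rose with the knockout in the same libraries. The counts of markers called stand beside 9.72% of all tested genes called up in KO on chow and 10.6% on HFCF. The shares called down were 5.82% and 8.52%. Resident Kupffer cell markers (6 genes, all in the table) summed to 566 to 598 CPM in KO HFCF livers, 373 to 381 CPM in KO chow livers, 221 to 470 CPM in WT HFCF livers and 236 to 266 CPM in WT chow livers, and 2 of the 6 rose in KO on chow and 5 on HFCF. The 2 chow calls, Clec4f and Vsig4 (edgeR adjusted p = 0.0457 and 0.0468), were each lost without any of 10 single libraries. Monocyte and macrophage markers (8 genes) summed to 299 to 331 CPM in KO HFCF, 255 to 288 in KO chow, 141 to 295 in WT HFCF and 149 to 178 in WT chow livers, and 6 of the 8 rose in KO on chow and 4 on HFCF. The chow call of Csf1r was lost without any of 3 single libraries and that of Lyz2 without any of 7. The other calls of this list held without any single library. T and NK cell markers (7 genes of 8 in the table) summed to 6.41 to 11 CPM in KO HFCF, 5.48 to 9.58 in KO chow, 1.93 to 2.84 in WT HFCF and 1.56 to 3.07 in WT chow livers. Of the 5 tested, 3 rose in KO on chow and 5 on HFCF (edgeR). Only the calls of Cd4 on both diets and of Gzma on HFCF held without any single library. Among these markers Cd3e was at 0 in WT HFCF replicates 1 and 2 and in WT chow replicate 2, and Gzma was at 0 in WT HFCF replicates 2 and 3. Plasmacytoid dendritic cell markers (5 genes of 6), from the cells best known for making type I interferon, summed to 35.4 to 46.1 CPM in KO HFCF, 35.5 to 42 in KO chow, 27.6 to 44.5 in WT HFCF and 23.4 to 24.5 in WT chow livers. Tcf4 was the largest part of this sum in every library. It stood at 25.1 to 26.7 CPM in KO HFCF and 28.4 to 32.3 CPM in KO chow livers. In WT livers Tcf4 stood at 21.1 to 23.1 CPM on HFCF and 20 to 22 CPM on chow. Of these 5 markers, 2 rose in KO on chow, Tcf4 and Siglech, and 0 on HFCF (edgeR). The Tcf4 call (0.52 on the log2 scale, edgeR adjusted p = 0.00081) held without any single library. The surface receptor Siglech was called on chow (adjusted p = 0.0393 by edgeR, lost without any of 6 single libraries) and not on HFCF (adjusted p = 0.0896), and Ly6d was highest in WT HFCF replicate 1, at 20.2 CPM.

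Markers of antibody-secreting cells showed a larger difference than any interferon-stimulated gene. Jchain, the joining chain of secreted antibodies, stood at 53.5, 65.2 and 56.5 CPM in KO HFCF livers, against 0.91, 0.695 and 0.515 CPM in WT HFCF livers. On chow, Jchain stood at 98.4, 88.3 and 117 CPM in KO livers, against 1.22, 0.92 and 1.38 CPM in WT livers. Its knockout effect was 6.34 ± 0.18 on HFCF and 6.42 ± 0.17 on chow on the log2 scale (edgeR adjusted p = 5.27e-11 and 1.78e-11). Mzb1, a chaperone of plasma cells, stood at 3.38 to 3.92 CPM in KO HFCF and 0.0695 to 0.258 CPM in WT HFCF livers, and at 5.59 to 6.81 CPM in KO chow and 0.142 to 0.207 CPM in WT chow livers. Both separated the genotypes on each diet, and in KO the HFCF livers lay below the chow livers in both. The whole list of 6 B and plasma cell markers summed to 357 to 382 CPM in KO HFCF, 375 to 457 in KO chow, 196 to 218 in WT HFCF and 288 to 350 in WT chow livers, and 5 of the 6 rose in KO on chow and 3 on HFCF. Most of that sum was Sdc1, a syndecan that other cells of the liver also express, at 285 to 322 CPM in KO HFCF, 246 to 357 in KO chow, 193 to 215 in WT HFCF and 286 to 347 in WT chow livers. On chow Sdc1 was the 1 marker of the 6 not called (-0.05 ± 0.12, edgeR adjusted p = 0.806). Neutrophil markers (3 genes of 6) summed to 5.1 to 6.47 CPM in KO HFCF, 4.93 to 6.69 in KO chow, 2.06 to 3.7 in WT HFCF and 2.62 to 3.36 in WT chow livers, and 1 of the 3 rose in KO on chow and 1 on HFCF (edgeR). Conventional dendritic cell markers (6 genes) summed to 25.8 to 27.8 CPM in KO HFCF, 26.2 to 28.5 in KO chow, 19.1 to 24.2 in WT HFCF and 16.8 to 18.7 in WT chow livers, and of the 5 tested 3 rose in KO on chow and 1 on HFCF. Endothelial markers (6 genes) summed to 413 to 442 CPM in KO HFCF, 425 to 451 in KO chow, 404 to 453 in WT HFCF and 416 to 423 in WT chow livers, and 0 of the 6 were called for the knockout on chow, 1 up and 1 down on HFCF (edgeR). The part of these cell types in the interferon-stimulated levels was not tested.

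**Figure D4:**
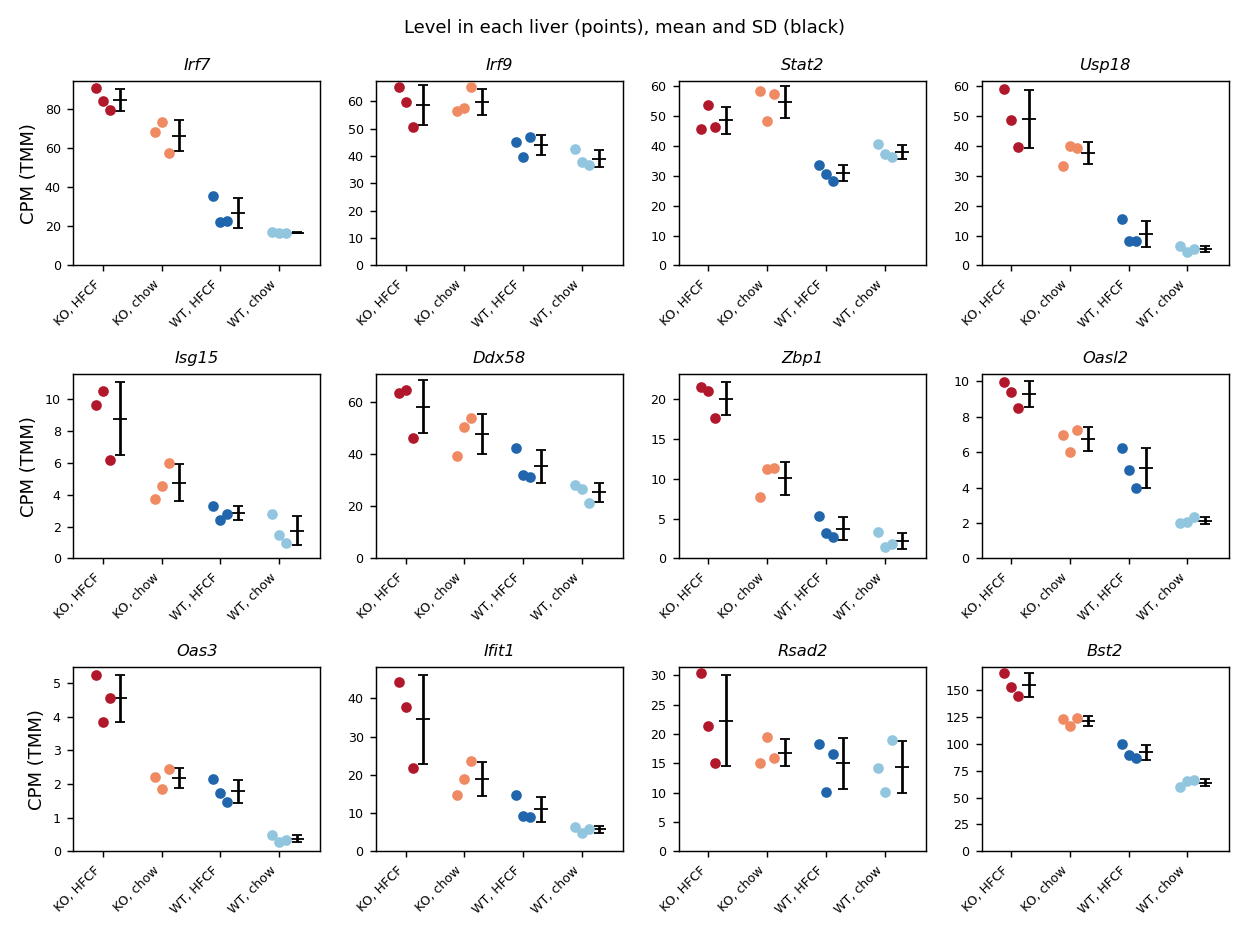
Level of 12 of the genes in CPM (vertical axes, each from 0) in the livers of the 4 groups. Coloured points are single livers and black bars the mean and SD of 3; KO livers lie above WT livers of the same diet in every panel shown except that of Rsad2.

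Among the transcription factors, Irf7 had the largest knockout fold change. Irf7 (chromosome 7, 141262705 to 141266481 in mm10), the factor that amplifies interferon production and is itself interferon-induced, stood at 68.3, 73.4 and 57.5 CPM in KO chow livers, against 17.2, 16.7 and 16.4 CPM in WT chow livers. On HFCF, Irf7 stood at 90.6, 84.3 and 79.4 CPM in KO livers, against 35.6, 22 and 22.7 CPM in WT livers. The genotypes did not overlap, and the lowest KO liver exceeded the highest WT liver of either diet. Irf7 was 3.95-fold higher in KO on chow (1.98 ± 0.16 on the log2 scale, edgeR adjusted p = 4.9e-06) and 3.15-fold higher on HFCF (1.66 ± 0.15, edgeR adjusted p = 9.42e-06). HFCF raised it in WT (0.68 ± 0.16, edgeR adjusted p = 0.0136), but not when WT chow replicate 3 was left out (adjusted p = 0.052), and in KO the diet effect was 0.35 ± 0.14 (edgeR adjusted p = 0.217).

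Irf9 and Stat2, both subunits of ISGF3, had smaller fold changes. Irf9 stood at 56.4, 57.6 and 65.2 CPM in KO chow livers, against 42.6, 37.9 and 36.8 CPM in WT chow livers. On HFCF, Irf9 stood at 65.4, 59.6 and 50.8 CPM in KO livers, against 45.3, 39.8 and 47.1 CPM in WT livers. It rose in KO by 0.61 ± 0.10 on chow (adjusted p = 0.00177 by edgeR) and by 0.41 ± 0.10 on HFCF (adjusted p = 0.0125). The call on HFCF ended without WT HFCF replicate 2 or KO HFCF replicate 1 or 2, and 124 bases of the gene overlap Rnf31 on the same strand. Stat2 stood at 58.2, 48.4 and 57.3 CPM in KO chow livers, against 40.5, 37.1 and 36.1 CPM in WT chow livers. On HFCF, Stat2 stood at 45.6, 53.8 and 46.4 CPM in KO livers, against 33.7, 30.5 and 28.3 CPM in WT livers. It rose in KO on both diets, by 0.53 ± 0.10 on chow (adjusted p = 0.00286 by edgeR) and 0.66 ± 0.10 on HFCF (adjusted p = 0.000451). Unlike most of the list, Stat2 was lower on HFCF: all 3 WT HFCF livers lay below all 3 WT chow livers, and the effect averaged over genotypes was -0.23 ± 0.07 (edgeR adjusted p = 0.0323), which no longer passed when any of 8 single libraries was left out.

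The ISG15 system rose in KO from the modifier to its enzymes. Isg15 itself, the ubiquitin-like protein that is conjugated to target proteins, stood at 3.71, 4.55 and 5.99 CPM in KO chow livers, against 2.79, 1.49 and 0.968 CPM in WT chow livers. On HFCF, Isg15 stood at 9.66, 10.5 and 6.19 CPM in KO livers, against 3.3, 2.43 and 2.77 CPM in WT livers. The groups were separate on each diet, with a wide spread in WT chow. Isg15 rose in KO by 1.44 ± 0.33 on chow (adjusted p = 0.0103 by edgeR) and 1.61 ± 0.29 on HFCF (adjusted p = 0.00158); the chow call ended without WT chow replicate 3 (adjusted p = 0.0513). Usp18 (chromosome 6, 121245905 to 121270916), the protease that removes ISG15 and blocks the interferon receptor, stood at 33.3, 40.2 and 39.4 CPM in KO chow livers, against 6.44, 4.6 and 5.39 CPM in WT chow livers. On HFCF, Usp18 stood at 59.1, 48.7 and 39.7 CPM in KO livers, against 15.7, 8.07 and 8.31 CPM in WT livers. Every KO liver was above every WT liver, including WT HFCF replicate 1, the highest WT liver. Usp18 was 6.86-fold higher in KO on chow (2.78 ± 0.24, edgeR adjusted p = 9.31e-06) and 4.55-fold higher on HFCF (2.18 ± 0.22, adjusted p = 2.03e-05).

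Herc6, the main ISG15 ligase in mice, stood at 21.5, 29.6 and 24.9 CPM in KO chow livers, against 12.9, 10.8 and 10.6 CPM in WT chow livers. On HFCF, Herc6 stood at 43.9, 48 and 32.1 CPM in KO livers, against 17.9, 15 and 14.1 CPM in WT livers. Genotypes were apart on both diets, and Herc6 rose in KO by 1.15 ± 0.16 on chow (adjusted p = 0.000583 by edgeR) and 1.40 ± 0.16 on HFCF (adjusted p = 5.37e-05). Uba7, the activating enzyme of ISG15, averaged 14.2 ± 1.85 CPM in KO chow and 7.72 ± 1.76 CPM in WT chow livers (SD, n = 3 each), and rose in KO by 0.87 ± 0.19 on chow (adjusted p = 0.00753 by edgeR) and 0.92 ± 0.17 on HFCF (adjusted p = 0.00221). Trim25, a ligase that modifies RIG-I, moved least of the 5: it rose in KO on chow (0.37 ± 0.08, edgeR adjusted p = 0.0102), while on HFCF it averaged 67.5 ± 1.68 CPM in KO and 60.7 ± 6.76 CPM in WT livers (0.15 ± 0.08, adjusted p = 0.23).

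All 4 sensors of nucleic acid rose in KO on both diets, and Zbp1 rose most. Zbp1 (chromosome 2, 173206611 to 173218923), which binds Z-form nucleic acid and can trigger cell death, stood at 7.69, 11.2 and 11.3 CPM in KO chow livers, against 3.36, 1.49 and 1.8 CPM in WT chow livers. On HFCF, Zbp1 stood at 21.5, 21 and 17.7 CPM in KO livers, against 5.34, 3.2 and 2.64 CPM in WT livers. The 3 KO HFCF livers were the highest of all, with no overlap with any other group. Zbp1 was 4.53-fold higher in KO on chow (2.18 ± 0.29, edgeR adjusted p = 0.000351) and 5.3-fold higher on HFCF (2.41 ± 0.26, adjusted p = 3.59e-05), the largest knockout effect among the 39 on HFCF.

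The RNA helicase sensors were called up in KO on both diets. Ddx58, which encodes RIG-I, stood at 39.2, 50.3 and 54 CPM in KO chow livers, against 28.3, 26.6 and 21.2 CPM in WT chow livers. On HFCF, Ddx58 stood at 63.4, 64.8 and 46.4 CPM in KO livers, against 42.4, 32.1 and 31.4 CPM in WT livers. It rose in KO by 0.91 ± 0.17 on chow (adjusted p = 0.00273 by edgeR) and 0.72 ± 0.16 on HFCF (adjusted p = 0.00704), with groups that did not overlap. Ifih1, which encodes MDA5, stood at 59.3, 69.7 and 77.1 CPM in KO chow livers, against 43.4, 34.5 and 33.8 CPM in WT chow livers. On HFCF, Ifih1 stood at 98.7, 104 and 72 CPM in KO livers, against 58.1, 47.7 and 48.1 CPM in WT livers. Every KO liver was above every WT liver, and the effect came to 0.88 ± 0.15 on chow (adjusted p = 0.00168 by edgeR) and 0.83 ± 0.14 on HFCF (adjusted p = 0.00136). Dhx58, which encodes LGP2, a regulator of both, averaged 13.1 ± 2.41 CPM in KO chow and 6.52 ± 0.998 CPM in WT chow livers and rose by 1.00 ± 0.18 (edgeR adjusted p = 0.00268); on HFCF it averaged 20.5 ± 2.24 CPM in KO and 10.1 ± 2.09 CPM in WT livers and rose by 1.01 ± 0.17 (adjusted p = 0.000998).

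The product of the oligoadenylate synthetases activates the RNA-degrading enzyme RNase L. Grouped with the synthetase-like Oasl1 and Oasl2, they were the family with the highest median effect on chow among families of at least 3 genes. All 6 rose in KO on both diets, with a median log2 fold change of 1.80 on chow and 1.22 on HFCF. Oas1a (chromosome 5, 120896255 to 120907527) stood at 3.99, 3.86 and 4.73 CPM in KO chow livers, against 0.644, 0.496 and 0.76 CPM in WT chow livers. On HFCF, Oas1a stood at 9.88, 8.39 and 5.68 CPM in KO livers, against 2.84, 1.67 and 1.22 CPM in WT livers. No KO liver overlapped a WT liver, and Oas1a rose by 2.71 ± 0.35 on chow (adjusted p = 0.000258 by edgeR) and 2.03 ± 0.27 on HFCF (adjusted p = 0.000189). Oas1g, its close paralog, averaged 1.09 ± 0.0512 CPM in KO chow and 0.377 ± 0.0868 CPM in WT chow livers. Its call on chow (1.52 ± 0.42, edgeR adjusted p = 0.0283) ended without any single chow library, at counts as low as 4 reads.

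Oas3 was called in all 4 comparisons of genotype and diet. It stood at 2.21, 1.86 and 2.46 CPM in KO chow livers, against 0.501, 0.283 and 0.346 CPM in WT chow livers. On HFCF, Oas3 stood at 5.23, 3.85 and 4.56 CPM in KO livers, against 2.16, 1.74 and 1.48 CPM in WT livers. The KO chow and WT HFCF livers overlapped, between a lower WT chow group and a higher KO HFCF group. Oas3 rose with knockout by 2.51 ± 0.29 on chow (adjusted p = 0.000131 by edgeR) and 1.33 ± 0.20 on HFCF (adjusted p = 0.000535), and with diet by 2.24 ± 0.30 in WT (edgeR adjusted p = 0.000454) and 1.05 ± 0.20 in KO (adjusted p = 0.0119). The last call ended without KO HFCF replicate 1, KO chow replicate 1 or KO chow replicate 2. Oas2 stood at 2.88, 2.35 and 2.46 CPM in KO chow livers, against 0.715, 0.779 and 0.484 CPM in WT chow livers. On HFCF, Oas2 stood at 4.29, 3.57 and 4.16 CPM in KO livers, against 2.05, 1.39 and 2.06 CPM in WT livers. It was separate between genotypes over all 12 livers and rose by 1.95 ± 0.25 on chow (adjusted p = 0.000258 by edgeR) and 1.12 ± 0.20 on HFCF (adjusted p = 0.00155).

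Of the synthetase-like genes, Oasl2 stood at 6.97, 6 and 7.25 CPM in KO chow livers, against 2, 2.05 and 2.35 CPM in WT chow livers. On HFCF, Oasl2 stood at 9.96, 9.37 and 8.49 CPM in KO livers, against 6.25, 5.01 and 3.99 CPM in WT livers. Genotypes were apart within each diet, by 1.66 ± 0.18 on chow (adjusted p = 7.5e-05 by edgeR) and 0.86 ± 0.16 on HFCF (adjusted p = 0.00192). Oasl1, which limits Irf7 translation in mice, averaged 15.1 ± 2.29 CPM in KO chow and 5.25 ± 0.973 CPM in WT chow livers and rose by 1.52 ± 0.22 (edgeR adjusted p = 0.000627). On HFCF, Oasl1 rose by 0.85 ± 0.20 (adjusted p = 0.00992 by edgeR), which did not pass without KO HFCF replicate 1 (adjusted p = 0.053).

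The IFIT proteins, which bind viral RNA and hinder its translation, were called up in KO on both diets except Ifit2 on chow. Ifit1 (chromosome 19, 34640870 to 34650009) stood at 14.6, 18.8 and 23.5 CPM in KO chow livers, against 6.44, 4.81 and 5.95 CPM in WT chow livers. On HFCF, Ifit1 stood at 44.3, 37.6 and 21.7 CPM in KO livers, against 14.8, 9.18 and 8.96 CPM in WT livers. Within each diet the genotypes did not overlap, but KO HFCF replicate 3 lay within the KO chow range. Ifit1 was 3.3-fold higher in KO on chow (1.72 ± 0.28, edgeR adjusted p = 0.00154) and 3.11-fold higher on HFCF (1.63 ± 0.26, adjusted p = 0.000688). Ifit3 averaged 8.43 ± 1.71 CPM in KO chow and 3.45 ± 0.904 CPM in WT chow livers, and 18.4 ± 2.86 CPM in KO HFCF and 9.59 ± 3.58 CPM in WT HFCF livers. It rose in all 4 comparisons, though on HFCF the knockout call ended without WT HFCF replicate 2 or KO HFCF replicate 2, and how its reads were separated from the near-identical Ifit3b is not given in the sources used here. Ifit2 stood at 20.3, 17.5 and 17.7 CPM in KO HFCF livers, against 11.5, 7.37 and 7.41 CPM in WT HFCF livers, a rise of 1.07 ± 0.21 (edgeR adjusted p = 0.0033). On chow, Ifit2 stood at 6.86, 8.42 and 10.1 CPM in KO livers, against 6.15, 3.47 and 6.5 CPM in WT livers. The chow groups came close to each other, and the difference did not pass (0.65 ± 0.23, edgeR adjusted p = 0.0756), though it passed with DESeq2 (adjusted p = 0.0424) and without WT HFCF replicate 1 (adjusted p = 0.0388).

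Rsad2 and Cmpk2, neighbours on chromosome 12 that encode viperin and a nucleotide kinase, were the 2 genes called on neither diet. Rsad2 (26442752 to 26456452) stood at 15.1, 19.5 and 15.9 CPM in KO chow livers, against 14.2, 10.1 and 18.9 CPM in WT chow livers. On HFCF, Rsad2 stood at 30.4, 21.3 and 15.1 CPM in KO livers, against 18.3, 10.1 and 16.5 CPM in WT livers. All 4 groups of Rsad2 overlapped, and the differences were 0.22 ± 0.27 on chow (adjusted p = 0.631 by edgeR) and 0.56 ± 0.27 on HFCF (adjusted p = 0.169). Its lowest count was 143, above the lowest count of every synthetase gene. Cmpk2 averaged 9.2 ± 1.25 CPM in KO chow and 5.89 ± 1.38 CPM in WT chow livers (0.64 ± 0.24, edgeR adjusted p = 0.0822). On HFCF, Cmpk2 averaged 10.9 ± 3.12 CPM in KO and 6.85 ± 1.51 CPM in WT livers (0.65 ± 0.23, edgeR adjusted p = 0.0633). Cmpk2 passed on HFCF with DESeq2 (adjusted p = 0.0418) and without WT HFCF replicate 1 (0.0402) or KO HFCF replicate 3 (0.0206), and on chow in a fit of those groups alone (0.0422). It rose in the contrast averaged over diets (0.64 ± 0.16, edgeR adjusted p = 0.00934).

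The Mx GTPases restrict influenza and other viruses, though C57BL/6 mice are known to carry defective alleles, and GENCODE M21 annotates Mx2 as a polymorphic pseudogene. Mx2 averaged 10.1 ± 1.33 CPM in KO chow and 5.22 ± 1.07 CPM in WT chow livers and rose by 0.95 ± 0.23 (edgeR adjusted p = 0.013), and by 1.17 ± 0.22 on HFCF (adjusted p = 0.00266). The chow call ended without WT chow replicate 3 (adjusted p = 0.0638). Mx1 averaged 6.55 ± 2.19 CPM in KO HFCF and 2.82 ± 0.952 CPM in WT HFCF livers and rose by 1.18 ± 0.30 (edgeR adjusted p = 0.014). On chow, Mx1 averaged 3.15 ± 0.755 CPM in KO and 1.61 ± 0.64 CPM in WT livers, which did not pass (0.96 ± 0.35, edgeR adjusted p = 0.0816) except with DESeq2 (adjusted p = 0.047). Mx1 on HFCF was lost without WT HFCF replicate 2 or 3 or KO HFCF replicate 1.

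Among the ADP-ribosyltransferases, Parp14 had the largest fold change. Parp14, an enzyme that adds single ADP-ribose units, stood at 77.7, 88.8 and 93.3 CPM in KO chow livers, against 49.6, 39.1 and 37.7 CPM in WT chow livers. On HFCF, Parp14 stood at 103, 112 and 84.9 CPM in KO livers, against 53.4, 48.5 and 46 CPM in WT livers. KO livers lay above all WT livers whatever the diet, by 1.04 ± 0.12 on chow (adjusted p = 0.000137 by edgeR) and 1.02 ± 0.12 on HFCF (adjusted p = 8.57e-05). Parp9 and Dtx3l, which form one ubiquitin ligase complex and overlap by 683 bases on opposite strands, rose by 0.47 ± 0.10 and 0.45 ± 0.08 on chow (adjusted p = 0.00903 and 0.002 by edgeR). Parp9 and Dtx3l also rose in KO among livers on HFCF, by 0.42 ± 0.10 and 0.43 ± 0.08 (edgeR adjusted p = 0.012 and 0.00156). Parp12 rose by 0.61 ± 0.14 on chow (adjusted p = 0.00991 by edgeR) and by 0.44 ± 0.13 on HFCF (adjusted p = 0.0333). Without WT chow replicate 3 the chow calls of Parp9 (adjusted p = 0.0528) and Parp12 (adjusted p = 0.0506) ended, and on HFCF each ended without WT HFCF replicate 2 or KO HFCF replicate 1 or 2. The HFCF call of Parp12 also ended without WT HFCF replicate 3 (edgeR adjusted p = 0.109) or WT chow replicate 2 (0.0557). It did not pass in a fit of the HFCF groups alone (edgeR adjusted p = 0.0872), and the genotypes overlapped in Parp12 on HFCF. Sp100, a scaffold of nuclear bodies, stood at 12.3, 13.5 and 12.9 CPM in KO chow livers, against 7.58, 6.37 and 7.88 CPM in WT chow livers. On HFCF, Sp100 stood at 14.3, 15.5 and 14 CPM in KO livers, against 9.04, 8.28 and 9.6 CPM in WT livers. It was separate between genotypes throughout, by 0.82 ± 0.11 on chow (adjusted p = 0.000369 by edgeR) and 0.70 ± 0.11 on HFCF (adjusted p = 0.000533).

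Of the other antiviral effectors, Bst2 was called in all 4 comparisons. Bst2 (chromosome 8, 71534263 to 71537437), or tetherin, holds budding virus at the cell surface. It stood at 123, 116 and 124 CPM in KO chow livers, against 59.9, 64.9 and 66.6 CPM in WT chow livers. On HFCF, Bst2 stood at 166, 153 and 144 CPM in KO livers, against 99.8, 89.2 and 86.9 CPM in WT livers. The 4 groups formed 4 steps with no overlap, KO HFCF highest and WT chow lowest. Bst2 rose with knockout by 0.92 ± 0.08 on chow (adjusted p = 8.79e-06 by edgeR) and 0.74 ± 0.08 on HFCF (adjusted p = 2.88e-05), and with diet by 0.53 ± 0.08 in WT (adjusted p = 0.000833) and 0.35 ± 0.08 in KO (adjusted p = 0.0273). The call of the diet effect in KO ended without any of the 3 KO chow libraries or KO HFCF replicate 1 or 2.

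Rtp4, a transmembrane protein that restrains interferon signalling in mice, stood at 13.5, 14.1 and 16.8 CPM in KO chow livers, against 5.22, 4.6 and 4.98 CPM in WT chow livers. On HFCF, Rtp4 stood at 24.8, 21 and 16.9 CPM in KO livers, against 10.5, 7.51 and 9.66 CPM in WT livers. KO livers were above WT livers of both diets, by 1.58 ± 0.17 on chow (adjusted p = 5.78e-05 by edgeR) and 1.17 ± 0.15 on HFCF (adjusted p = 0.000174). Xaf1, a pro-apoptotic antagonist of XIAP, stood at 4.04, 7.73 and 6.87 CPM in KO chow livers, against 1.79, 2.41 and 1.94 CPM in WT chow livers. On HFCF, Xaf1 stood at 11.8, 10.6 and 9 CPM in KO livers, against 4.15, 2.99 and 2.32 CPM in WT livers. KO chow replicate 1 was low enough to fall below WT HFCF replicate 1, but within each diet the genotypes were separate, by 1.59 ± 0.27 on chow (adjusted p = 0.00189 by edgeR) and 1.71 ± 0.24 on HFCF (adjusted p = 0.000306).

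Trim30a, a brake on Toll-like receptor signalling in mice, stood at 17.2, 17.1 and 18.7 CPM in KO chow livers, against 8.65, 6.94 and 7.4 CPM in WT chow livers. On HFCF, Trim30a stood at 26.3, 26.1 and 22.6 CPM in KO livers, against 14.7, 10.4 and 10.6 CPM in WT livers. All KO livers exceeded all WT livers, by 1.20 ± 0.14 on chow (adjusted p = 0.000114 by edgeR) and 1.06 ± 0.13 on HFCF (adjusted p = 0.000105). Lgals3bp, a secreted glycoprotein, stood at 72.5, 70 and 68.4 CPM in KO chow livers, against 31.8, 26.9 and 32.4 CPM in WT chow livers. On HFCF, Lgals3bp stood at 87.9, 72.5 and 76.8 CPM in KO livers, against 58, 42.2 and 39.9 CPM in WT livers. It too was separate over all 12 livers, by 1.21 ± 0.13 on chow (adjusted p = 5.78e-05 by edgeR) and 0.76 ± 0.12 on HFCF (adjusted p = 0.000953). Eif2ak2, the kinase PKR that halts translation, rose in KO on chow (0.63 ± 0.14, edgeR adjusted p = 0.00991). On HFCF, Eif2ak2 averaged 34.6 ± 7.68 CPM in KO and 26.9 ± 3.36 CPM in WT livers (0.36 ± 0.14, adjusted p = 0.0943). Samd9l rose in KO on chow by 0.92 ± 0.20 (edgeR adjusted p = 0.00736). On HFCF, Samd9l averaged 55.6 ± 7.01 CPM in KO and 44.6 ± 14.1 CPM in WT livers, with WT HFCF replicate 1 the highest of all 12, and passed only when that library was left out (0.60 on the log2 scale, edgeR adjusted p = 0.0137).

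The IFI genes were named for their induction by interferon. Ifi44 (chromosome 3, 151730921 to 151749947) had the largest knockout effect on chow of the 39. It stood at 8.25, 7.38 and 6.36 CPM in KO chow livers, against 1, 0.849 and 1.04 CPM in WT chow livers. On HFCF, Ifi44 stood at 13.7, 13.9 and 7.88 CPM in KO livers, against 4.15, 2.85 and 3.61 CPM in WT livers. Every KO liver was above every WT liver, and Ifi44 was 7.57-fold higher in KO on chow (2.92 ± 0.27, edgeR adjusted p = 2.18e-05) and 3.3-fold higher on HFCF (1.72 ± 0.22, adjusted p = 0.000123). Ifi35 rose in KO on chow (0.42 ± 0.12, edgeR adjusted p = 0.0288), which no longer passed with WT chow replicate 2 or 3 or KO chow replicate 2 or 3 left out. On HFCF, Ifi35 averaged 28.8 ± 0.619 CPM in KO and 23 ± 2.72 CPM in WT livers (0.33 ± 0.12, edgeR adjusted p = 0.0645). The gene listed as Ifi27l1 and matched to Ifi27 by its identifier stood at 212, 180 and 175 CPM in KO chow livers, against 71.9, 62.4 and 78.8 CPM in WT chow livers. On HFCF, Ifi27 stood at 190, 141 and 118 CPM in KO livers, against 85.9, 63.9 and 71.2 CPM in WT livers. Its genotypes were far apart, by 1.41 ± 0.16 on chow (adjusted p = 9.96e-05 by edgeR) and 1.02 ± 0.16 on HFCF (adjusted p = 0.000603). No diet effect passed, with 0.05 ± 0.16 in WT (edgeR adjusted p = 0.864) and -0.33 ± 0.16 in KO (adjusted p = 0.279).

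Per gene length, the levels spanned a wide range that the fold changes do not show. In the deposited FPKM values Bst2 was the most abundant of the 39, at 162 ± 9.62 FPKM in KO chow and 82.5 ± 3.8 FPKM in WT chow livers (SD, n = 3). Ifi27 stood at 131 ± 13.3 FPKM in KO chow and 47.9 ± 5.69 FPKM in WT chow livers. The next most abundant gene in WT chow livers was Parp9, at 23.8 ± 3.28 FPKM in KO chow and 16.6 ± 2.37 FPKM in WT chow livers. Oas3 was the least abundant in WT chow livers, at 0.427 ± 0.0688 FPKM in KO chow and 0.0714 ± 0.022 FPKM in WT chow livers, where its lowest count was 4 reads. The genes with the largest fold changes on chow were thus mostly low: Ifi44 stood at 1.22 ± 0.139 FPKM in KO chow and 0.156 ± 0.0169 FPKM in WT chow livers, and Oas1a at 2.15 ± 0.295 and 0.314 ± 0.0663 FPKM. Usp18 and Irf7 were higher, with Usp18 at 21.7 ± 2.31 FPKM in KO chow and 3.06 ± 0.547 FPKM in WT chow livers and Irf7 at 22.4 ± 2.2 and 5.49 ± 0.192 FPKM.

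The next comparison asked what the HFCF diet did to the same genes in each genotype. In WT livers 18 of the 39 rose and none fell on HFCF, against 7.76% of all tested genes called up and 5.9% called down, with a median log2 fold change of 0.64 over the 39 and 0.00 over all. In 24 genes the 3 HFCF livers were all above the 3 chow livers, against 15.8% of all tested genes, and in 1, Stat2, all were below. The largest rises were those of Oas3 (2.24 ± 0.30, edgeR adjusted p = 0.000454), Ifi44 (1.88 ± 0.30, adjusted p = 0.00127), Oas1a (1.60 ± 0.38, adjusted p = 0.015) and Ifit3 (1.48 ± 0.27, adjusted p = 0.00311). Of the oligoadenylate synthetase family 5 of 6 rose, all but Oas1g. Of the sensors only Dhx58 passed (0.64 ± 0.18, edgeR adjusted p = 0.0333), while Ddx58, Ifih1 and Zbp1 were between 0.46 and 0.77. The other genes called up were Irf7, Usp18, Uba7, Oasl1, Oasl2, Oas2, Ifit1, Parp12, Rtp4, Trim30a, Lgals3bp, Samd9l and Bst2.

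WT HFCF replicate 1 had the highest level of its group in 34 of the 39 genes. Without it, 11 of the 39 rose on HFCF in WT and 1, Stat2, fell (edgeR), and the median log2 fold change was 0.41. The same library had the highest Kupffer cell marker sum of the WT livers (470 CPM, against 276 and 221 CPM in the other WT HFCF livers) and the highest monocyte and macrophage sum (295 CPM, against 183 and 141 CPM). Its part in the result through those cells was not tested. The count in WT was also 11 without WT chow replicate 2 and without WT chow replicate 3. The calls kept in every alternative fit and without any single library were 10: Ifi44, Oasl2, Oas2, Oas3, Ifit3, Rtp4, Bst2, Trim30a, Lgals3bp and Samd9l.

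In KO livers 7 of the 39 rose and none fell on HFCF, against 1.47% of all tested genes called up and 1.18% called down (2.65% in either direction), with a median log2 fold change of 0.42 over the 39 and 0.00 over all. All 3 HFCF livers were above all 3 chow livers in 21 genes, against 13.1% of all tested genes, and all were below in 1, Trim25. The genes that rose were Ifit2 (1.13 ± 0.21, edgeR adjusted p = 0.0122), Ifit3 (1.12 ± 0.23, adjusted p = 0.0214), Oas3 (1.05 ± 0.20, adjusted p = 0.0119), Zbp1 (1.00 ± 0.23, adjusted p = 0.0387), Uba7 (0.79 ± 0.17, adjusted p = 0.0262), Herc6 (0.71 ± 0.15, adjusted p = 0.0247) and Bst2 (0.35 ± 0.08, adjusted p = 0.0273). Each of these calls ended without at least 1 single library. By edgeR the count was 0 with replicate 1 of either KO group left out, 2 with replicate 2 of either KO group left out, 4 without KO chow replicate 3, 12 without KO HFCF replicate 3, 11 without WT HFCF replicate 3 (10 up and Trim25 down) and 16 without WT HFCF replicate 1.

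Averaged over genotypes, 29 of the 39 rose and 2 fell with HFCF (edgeR adjusted p under 0.05), against 9.43% of all tested genes called up and 7.45% called down. The 2 that fell were Stat2 and Trim25 (-0.18 ± 0.06, edgeR adjusted p = 0.0494). The Trim25 call was lost with RLE or upper quartile scaling, with no filter, with DESeq2, with the replicate block (adjusted p = 0.0577) and without any of 11 single libraries, with adjusted p between 0.0514 and 0.126 over these settings. Without WT HFCF replicate 1, 22 rose and 1 fell.

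**Figure D5:**
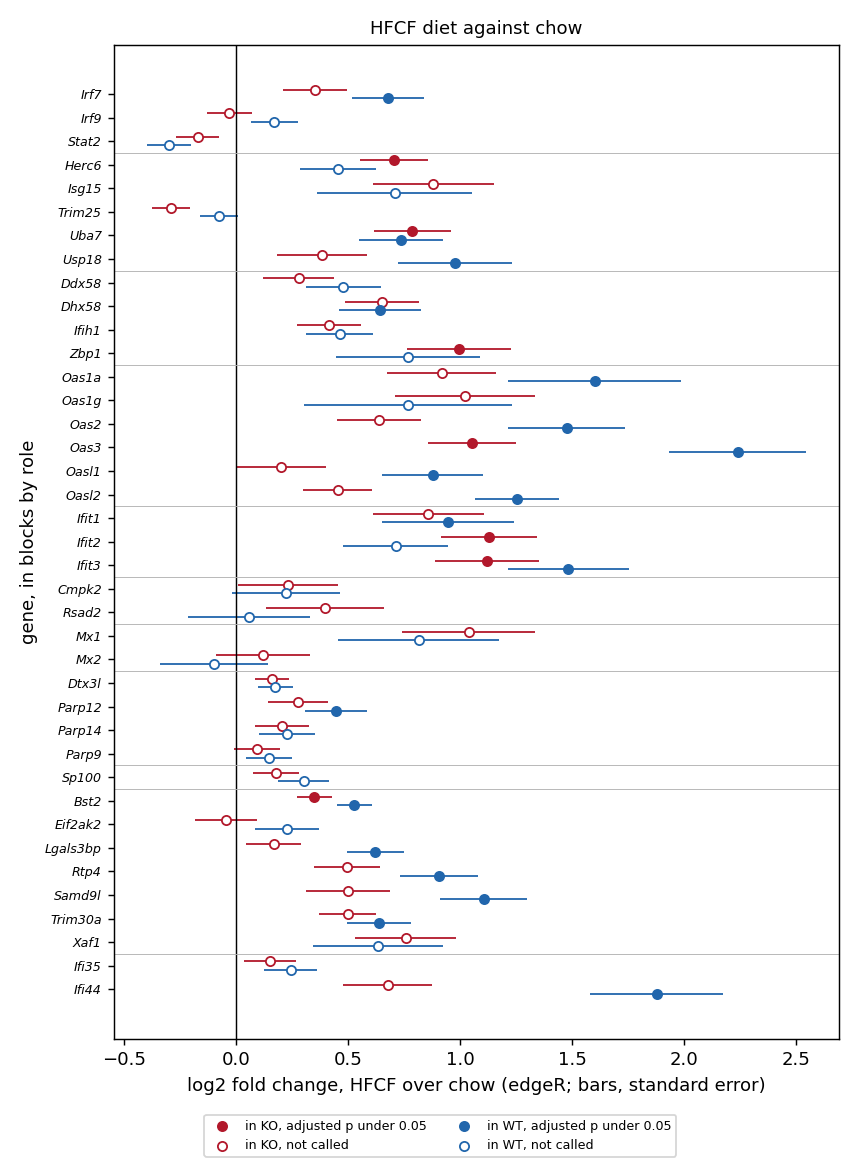
Diet effect on each of the 39 genes. The horizontal axis is edgeR's log2 fold change of HFCF over chow, in KO (red) and in WT (blue), with bars for the standard error; filled points passed an adjusted p of 0.05, and Stat2 and Trim25 lie left of 0 in both genotypes.

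Whether the diet effect differed between genotypes was tested as an interaction. None of the 39 was called, by edgeR, DESeq2 or limma voom, against 0.794% of all tested genes called in either direction by edgeR. At an unadjusted p under 0.05, 7 were lower and 0 higher, meaning a smaller estimated diet effect in KO than in WT: Ifi44 (-1.20 ± 0.36, edgeR adjusted p = 0.157), Oas3 (-1.18 ± 0.37, adjusted p = 0.177), Oas2 (-0.84 ± 0.33, adjusted p = 0.274), Oasl2 (-0.80 ± 0.24, adjusted p = 0.156), Oasl1 (-0.67 ± 0.30, adjusted p = 0.354), Samd9l (-0.61 ± 0.27, adjusted p = 0.351) and Lgals3bp (-0.45 ± 0.18, adjusted p = 0.28). The count of 7 fell to 4 without WT HFCF replicate 1 and without WT chow replicate 3. The share of all tested genes at this unadjusted threshold was not computed, so the count has no background beside it. The median interaction over the 39 was -0.12, and 0.00 without WT HFCF replicate 1. The knockout and diet comparisons share groups, so their values are given side by side and not as separate evidence.

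The rest of the interferon pathway was followed with a list of 48 further genes, of which 37 were in the table and 36 were tested. On chow 15 rose and 1 fell in KO, against 9.72% and 5.82% of all tested genes, and on HFCF 19 rose and 0 fell, against 10.6% and 8.52%. Averaged over diets 26 rose and 1 fell, against 16.8% and 12.8% (edgeR). Of 10 interferon ligand genes 1 was in the table used here, Ifnk, at 0.49 to 0.872 CPM in KO HFCF and 0.129 to 0.348 CPM in WT HFCF livers, and at 0.387 to 1.38 CPM in KO chow and 0.142 to 0.501 CPM in WT chow livers. It was not called on either diet (edgeR adjusted p = 0.177 and 0.102). Averaged over diets Ifnk was called up (1.27 ± 0.39, edgeR adjusted p = 0.0257), which was lost without any of 5 single libraries. The other ligands were not analysed here. The genes of the type I receptor differed little: on chow Ifnar1 had a knockout effect of 0.07 ± 0.07 (edgeR adjusted p = 0.533) and, on HFCF, of 0.22 ± 0.07 (adjusted p = 0.0366, lost without any of 9 single libraries), and Ifnar2 of -0.12 ± 0.06 and 0.07 ± 0.06 (adjusted p = 0.197 and 0.519). Jak1 (0.34 ± 0.08) and Jak2 (0.28 ± 0.08) rose on HFCF (edgeR adjusted p = 0.00923 and 0.0211) and Tyk2 on chow (0.29 ± 0.09, adjusted p = 0.0368), each lost without at least 1 library, as were Ifngr1 on HFCF (0.38 ± 0.08, adjusted p = 0.00638) and Ifngr2 (0.45 ± 0.12, adjusted p = 0.0245) and Il10rb (0.52 ± 0.13, adjusted p = 0.0161) on chow.

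Other transcription factors of the pathway were called as well. Irf1 rose in KO on both diets (0.67 ± 0.14 on chow, edgeR adjusted p = 0.00716; 0.80 ± 0.14 on HFCF, adjusted p = 0.00148), and so did Irf8, a factor of the myeloid lineage (1.11 ± 0.23 on chow, edgeR adjusted p = 0.00622; 0.79 ± 0.22 on HFCF, adjusted p = 0.0204, a call lost without any of 3 single libraries). Irf5 (0.55 ± 0.10, edgeR adjusted p = 0.0015) and Stat3 (0.77 ± 0.16, adjusted p = 0.00369) were called up on HFCF. Irf3, which acts upstream of interferon and is not induced by it, was at -0.19 ± 0.11 on chow and 0.01 ± 0.11 on HFCF (edgeR adjusted p = 0.244 and 0.964).

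Upstream sensing genes were mixed. Tlr3 rose in KO on both diets (0.78 ± 0.18 on chow, edgeR adjusted p = 0.0101; 0.86 ± 0.17 on HFCF, adjusted p = 0.00286). Tlr8 (1.01 ± 0.23 and 1.11 ± 0.22, edgeR adjusted p = 0.00995 and 0.00379), Ikbke (0.69 ± 0.17 and 1.14 ± 0.16, adjusted p = 0.0145 and 0.000292) and Tmem173, which encodes STING (0.96 ± 0.25 and 0.81 ± 0.24, adjusted p = 0.02 and 0.0286), rose on chow and on HFCF. Their chow calls ended without WT chow replicate 3, and the HFCF call of Tmem173 without any of 4 single libraries. Unc93b1 was called up on both diets, Tlr9 and Traf3 on chow, and Tlr7 and Tbk1 on HFCF. Of these the Tlr9 call held without any single library, at low levels of 0.609 to 0.966 CPM in KO chow and 0.138 to 0.215 CPM in WT chow livers. On HFCF the genotypes overlapped in Tlr9, at 0.363 to 0.699 CPM in KO and 0.322 to 0.626 CPM in WT livers. The calls of Unc93b1 were lost without 1 library on chow and any of 9 on HFCF, that of Traf3 without any of 5, that of Tlr7 without any of 4 and that of Tbk1 without any of 11. Mavs, Myd88 and Ticam1, the adaptors of the sensors, were not called for the knockout on either diet, and Ikbke was the 1 gene of the list called for diet in KO (0.86 ± 0.16, edgeR adjusted p = 0.011), lost with KO HFCF replicate 2 or KO chow replicate 1 left out. Of inhibitors of the pathway, Adar, which edits RNA and is itself interferon-induced, rose on both diets (0.80 ± 0.11 on chow, edgeR adjusted p = 0.000465; 0.51 ± 0.11 on HFCF, adjusted p = 0.00571). Trex1 (0.49 ± 0.11 and 0.34 ± 0.11, edgeR adjusted p = 0.0106 and 0.04) rose too, Socs3 was called up on HFCF (1.36 ± 0.35, adjusted p = 0.0141) and Irf2bp2 down on chow (-0.61 ± 0.18, adjusted p = 0.0401). Those of Trex1, Socs3 and Irf2bp2 were each lost without at least 1 single library. With diet in WT, Trex1 rose and Stat3, Myd88 and Irf2bp2 fell, and each of these 4 calls was lost without WT HFCF replicate 1 (edgeR).

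Genes with and without the ISRE core in their promoter window rose in KO. On chow 12 of the 13 genes with the core rose in KO, with a median log2 fold change of 1.20, and 15 of the 17 with a window but no core rose, with a median of 0.87. On HFCF 11 of 13 with the core rose (median 0.92) and 13 of 17 without it (median 0.76). With diet in WT the medians were 0.64 with the core and 0.62 without it. Ifi44, with the largest effect on chow, had no core in its window, and Rsad2, with the smallest, had one, as the stretch printed above shows. The window covers only a part of each promoter, and no test was made of this split.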

How the data were processed

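Liver RNA was sequenced from 12 mice in stranded libraries made after ribosomal RNA removal (per the labels' protocols). The authors deposited 1 table with a read count and an FPKM value for each gene and library, per the file headers. Per the submitters' processing notes the genome build is mm10. Which aligner and counter were used, the strand setting and the treatment of multi-mapped reads are not given in the sources used here. Counts were used for all tests, and the deposited FPKM values only to compare levels between genes.

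Genes with low counts were removed with filterByExpr (minimum count 10, minimum total 15), which kept 14736 of 15846. Library sizes were adjusted with TMM factors, and edgeR 4.0.16 fitted the counts (quasi-likelihood, 4 group means, R 4.3.3), with Benjamini-Hochberg adjustment over all tested genes and a threshold of 0.05; values after ± are standard errors for log2 fold changes and SD for means. The pipeline was tested on simulated data. Precision is limited by 3 livers a group. In the main fit each p-value sets a difference of group means against the spread within groups, estimated over all 4 groups. Each result for the interferon-stimulated genes was recomputed with upper quartile or RLE scaling. It was also recomputed without the filter or with a stricter one (1 CPM in 6 libraries). Further runs used a replicate block, DESeq2 1.42.0, limma 3.58.1 voom and each library left out in turn. The compared groups were fitted alone for the 4 comparisons within a diet or genotype, not for the averaged contrasts or the interaction. Calls of marker and wider pathway genes were rechecked only with each library left out in turn. Replicate numbers were checked for pairing: same-numbered libraries correlated between -0.177 and 0.205, and differently numbered ones between -0.181 and 0.178. Between WT HFCF and WT chow, same-numbered libraries correlated at 0.0846 to 0.205 and the others at -0.1205 to -0.0125, so pairing there cannot be told. The block is an alternative only.

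The members and the other lists were chosen with earlier results of these data known. All members are accounted for; values in every library are given for members called in any comparison, lowest adjusted p first up to about 20, and for 12 anchor genes, and a few further genes are described in the same way after their values were seen. Promoter windows came from RefSeq (GRCm38.p6). One gene of the wider pathway list is not reported here, though counts over that list include it.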

Additional observations from a re-analysis of the deposited data

How the results depend on the processing

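No call of an interferon-stimulated gene reversed direction under any alternative run. The median interaction over the 39 genes, which has no test, changed sign without WT HFCF replicate 1, at -0.12 with it and 0.0043 without it; the cause was not tested. The number of the 39 genes called for the knockout was 29 to 36 on chow, 28 to 35 on HFCF and 38 averaged over diets when 1 library was left out. The diet effect in WT gave 11 to 21 genes and that in KO 0 to 16. In KO, DESeq2 called 14 genes and a fit of the compared groups alone 11. The diet effect averaged over genotypes gave 22 to 29 genes, and the interaction gave 0 throughout. With a replicate block the counts were 35 and 33 for the knockout on chow and HFCF, 16 and 8 for the diet in WT and KO, 0 for the interaction, and 38 and 27 for the averaged knockout and diet effects. Whether the replicate numbers pair the libraries cannot be told from the correlations. With Ifi27 included, the calls kept in every alternative were 30 of 36 for the knockout on chow, 28 of 34 on HFCF, 10 of 18 for the diet in WT and 0 of 7 for the diet in KO. The lowest count of a member was 4 reads, in Oas1g and Oas3; the part of depth in the calls was not tested.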
